A study of Mus musculus with 26 samples.

Results

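Smooth muscle, actin and SRF target genes are 35 genes for the actin filament, its smooth muscle partners, the myosin II motor, the adhesion plaque and the transcription factors that drive them, listed by symbol. Each was read through 1 probe set that the platform annotation pairs with that gene alone, the brightest on average over all arrays, out of 18193 genes with such a probe set. All 35 had one, and 34 passed the filter on low values, which left 13018 genes for testing. Fhl3, for a LIM domain protein, did not pass, and its line means lay between 15.7 and 51.2 intensity units over all vectors. Mkl1 of the list is annotated as Mrtfa, the name used here.

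Serum response factor (SRF) is a transcription factor that binds the CArG box in DNA. Its coactivators of the myocardin-related family, MRTF-A and MRTF-B, are held by monomeric actin and enter the nucleus when actin is built into filaments, so that genes for actin and its binding proteins are transcribed when that pool of monomers shrinks. Fibroblasts use this set of genes for stress fibres and focal adhesions, smooth muscle cells for contraction, and cells transformed by oncogenes such as Src are known for lost stress fibres.

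The material was 26 Affymetrix arrays of RNA from immortalized mouse embryonic fibroblasts (MEFs). In each of 3 parental lines, named WA, WB and WC, the groups were cells with a pBabe vector for human c-myc, which encodes a growth-driving transcription factor, cells with a pBabe vector for v-src, a constantly active tyrosine kinase, and cells with the empty pBabe-puro vector. Every group therefore carried a retroviral pBabe vector, and every group had 3 arrays except v-src in WB, which had 2. The mouse strain, embryo age and sex, the way of immortalization and whether infected cells were pools or clones were not given in the sources used here, and neither was whether replicates were separate cultures or infections, so that p-values within a line measure only the spread between these arrays, which may be technical.

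The values are array intensities on a linear scale with a trimmed mean of 500 on every array, and array medians lay between 89.0 and 134.6. Arrays of the same group correlated at r = 0.960 to 0.983 over genes and arrays of different groups at 0.863 to 0.959. WC c-myc replicate 1 had the lowest mean correlation with its own group (0.963), followed by WC c-myc replicate 3 (0.967) and WA empty vector replicate 3 (0.968), which also had the lowest median intensity. Counts over the lines are given with and without WC c-myc replicate 1 and WA empty vector replicate 3 together. Some results that rest on a single array are also given without it. Among markers, all 8 of the fibroblast list passed the filter, with summed intensities of 82336 to 102150 with c-myc, 77965 to 100879 with v-src and 96839 to 160070 with the empty vector. Of 7 smooth muscle markers 5 passed, all of them genes of the list described here, with sums of 17935 to 25255 with c-myc, 5416 to 20963 with v-src and 21031 to 37582 with the empty vector. The defining smooth muscle genes Myh11 (smooth muscle myosin heavy chain) and Myocd (myocardin) did not pass, and Myh11 reached at most 57.3 on any array. Of the epithelial list, Cdh1 did not pass, while the summed list read 440.4 to 3792 with c-myc, 1205 to 5956 with v-src and 767 to 2821 with the empty vector, and its part in the results was not tested. Epcam made up most of the highest sums, with a maximum of 3428 with c-myc, 5624 with v-src and 2506 with the empty vector, while Krt8 reached at most 289 with c-myc, 213 with v-src and 344 with the empty vector. Krt18 reached at most 219 with c-myc, 135 with v-src and 131 with the empty vector. Fewer cells of a type and less RNA per cell cannot be told apart in such bulk samples.

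Promoters are shown first for 4 genes whose arrays are described in full and which carry a CArG box or a match 1 letter off. The windows are RefSeq's, on build GRCm38.p6, from 250 bases before to 50 bases after the annotated start, on the gene's strand and 5′ to 3′, with boxes in capitals. Srf lies on the minus strand at chr17:46556113-46556412 and has 2 exact boxes, which begin 82 and 62 bases before the start. Acta2, for smooth muscle alpha-actin, lies on the minus strand at chr19:34255324-34255623 and has 2 matches that miss the box by 1 letter, 84 and 34 bases before the start. Fhl1 lies on the plus strand at chrX:56779433-56779732 with 1 exact box at 102 bases, and Myl9 on the plus strand at chr2:156775214-156775513 with 1 exact box at 161 bases. A further window of Fhl1, at chrX:56786277-56786576, held no match and is not shown. In the Myl9 window, ccttgtaagg is a further match 1 letter off. It stays in lower case, since such matches were marked only in windows without an exact box.
Srf: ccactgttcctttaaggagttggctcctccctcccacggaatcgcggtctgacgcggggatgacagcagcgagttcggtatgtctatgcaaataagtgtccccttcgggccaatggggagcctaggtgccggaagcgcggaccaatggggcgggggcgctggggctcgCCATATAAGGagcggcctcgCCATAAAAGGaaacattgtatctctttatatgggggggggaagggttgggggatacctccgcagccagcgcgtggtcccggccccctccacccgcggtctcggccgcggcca
Acta2: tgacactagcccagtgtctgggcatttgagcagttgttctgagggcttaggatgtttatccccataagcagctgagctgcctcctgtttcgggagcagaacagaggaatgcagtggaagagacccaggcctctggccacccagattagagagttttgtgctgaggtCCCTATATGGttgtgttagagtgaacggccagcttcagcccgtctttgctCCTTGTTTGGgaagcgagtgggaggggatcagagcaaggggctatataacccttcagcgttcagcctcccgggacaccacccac
Fhl1: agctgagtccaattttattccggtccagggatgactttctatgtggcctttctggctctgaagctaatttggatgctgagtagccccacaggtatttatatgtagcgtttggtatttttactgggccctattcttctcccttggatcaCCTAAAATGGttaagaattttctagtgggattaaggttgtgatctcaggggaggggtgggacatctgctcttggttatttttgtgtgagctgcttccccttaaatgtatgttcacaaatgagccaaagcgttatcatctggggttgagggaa
Myl9: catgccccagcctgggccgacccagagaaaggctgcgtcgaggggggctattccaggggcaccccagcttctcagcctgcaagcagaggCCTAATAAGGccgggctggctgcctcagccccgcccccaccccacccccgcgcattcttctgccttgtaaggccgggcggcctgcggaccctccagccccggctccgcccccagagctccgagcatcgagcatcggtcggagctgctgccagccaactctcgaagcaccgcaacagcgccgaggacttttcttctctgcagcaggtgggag

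The CArG box was searched by its name's pattern, whose reverse complement is the same pattern, so that both strands were covered at the same time. Of the 35 genes, 32 matched the promoter table, some with more than 1 window. Actg2, Csrp2 and Tagln did not. An exact box stood in the windows of 8 of the 32 genes (25.0%), against 488 of all 27025 genes of the table (1.81%). With 1 letter of the A and T core allowed to differ, 10 of the 32 genes (31.25%) and 11.3% of all genes had a match. The members were listed as SRF targets, so this share is a description of the list. The boxes of the other 6 genes are set out below to show how their letters vary, with the distance from box to start after them.
Cnn2: CCTTATAAGG
Filip1l: CCTTATAAGG
Vcl: CCTTATAAGG
Myl6: CCTTATATGG
Fhl2 in the window at chr1:43163912-43164211: CCTTATATGG
Fhl2 in the window at chr1:43196712-43197011: CCAAAAAAGG
Mrtfa, 1 letter off: CCTAAATCGG
On the plus strand, the box began 56 bases before the start in Cnn2 (window chr10:79988350-79988649), 62 in Filip1l (chr16:57548992-57549291) and 227 in Vcl (chr14:20929148-20929447). On the minus strand, it began 50 bases before the start in Myl6 (chr10:128492960-128493259), 124 in Mrtfa (chr15:81190687-81190986), and 31 and 96 in the windows of Fhl2. Cnn2, Filip1l and Vcl shared the same letters, and so did Myl6 and a window of Fhl2. Further windows of Filip1l (chr16:57353027-57353326), Myl6 (chr10:128493837-128494136) and Mrtfa (chr15:81104998-81105297) held no match.

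**Figure D1:**
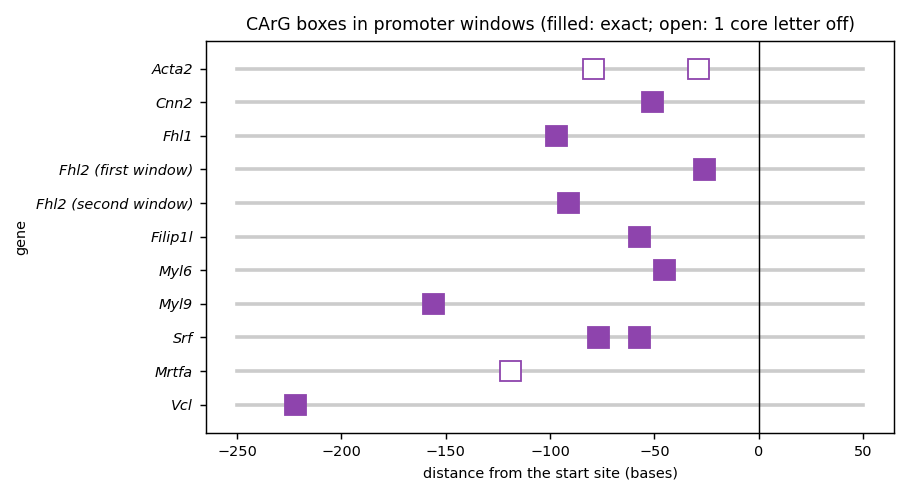
CArG boxes in the promoter windows that hold a match, by distance from the annotated start site in bases (x axis) for each gene (y axis). Exact boxes are filled and, for genes without one, matches 1 letter off are open. Windows without a match are not drawn. The boxes lie between 227 and 31 bases before the start.

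With v-src, 20 of the 34 tested genes fell over the 3 lines and none rose, where 6.79% of all 13018 genes tested were called lower, 6.64% higher and 13.4% in either direction. With c-myc, 11 fell and none rose, where 9.76% of all genes were called lower, 10% higher and 19.8% in either direction. The largest of these were Lmod1 (leiomodin, an actin nucleator of smooth muscle), Fhl1 (a LIM domain protein of muscle) and Cnn1 (calponin of smooth muscle) with v-src, at 8.01-fold, 6.19-fold and 5.26-fold lower, and Lmod1 and Actg2 (smooth muscle gamma-actin) with c-myc, at 4.11-fold and 3.31-fold lower. The median difference of the 34 genes on the log2 scale was -0.69 with v-src and -0.41 with c-myc, where the medians over all genes were 0.02 and 0.04. These differences are of log2(intensity + 23) averaged per line and vector, from limma with the line as a term and Benjamini-Hochberg adjustment over all genes tested, called at an adjusted p under 0.05. The tested members' probe sets ranked, on average over arrays, between percentile 53.4 (Lmod1) and 99.5 (Acta2) of probe sets. The shares and medians over all genes were not matched to them by intensity.

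The calls with the 2 vectors overlapped by 9 genes, Actg2, Cnn2, Cnn3, Flna, Lmod1, Myh9, Myl6, Tln1 and Tpm2, but both comparisons use the same empty vector arrays. How many of all genes were called with both vectors, or with only either of them, was not counted. The overlap is therefore only a list of these genes. Actn4 and Tpm4 were called with c-myc and not v-src, and 11 genes with v-src and not c-myc, namely Cald1, Cnn1, Csrp1, Csrp2, Fhl1, Myh10, Myl9, Pdlim5, Srf, Tpm1 and Vcl. The remaining 12, Acta2, Actn1, Des, Fhl2, Filip1l, Mylk, Pdlim7, Smtn, Mrtfa, Tagln, Tagln2 and Zyx, passed the test with neither. With only 9 averages, these calls depended on the lines kept. Leaving out line WA, WB or WC left 18, 7 and 7 genes with v-src and 3, 8 and 4 with c-myc. Of the 38 calls over the lines, counting also v-src against c-myc, 8 held in all 37 other settings, 16 were lost only when a line was left out, and 14 in some other setting. Without an intensity trend in the fit, 14 genes were called with v-src and 7 with c-myc. With every array taken as a separate value, 29 were called with v-src and 25 with c-myc. That setting counts arrays that may be technical as replicates, so its larger counts add no support. Without WC c-myc replicate 1 and WA empty vector replicate 3, 20 genes were called with v-src, 11 with c-myc and 6 between v-src and c-myc.

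**Figure D2:**
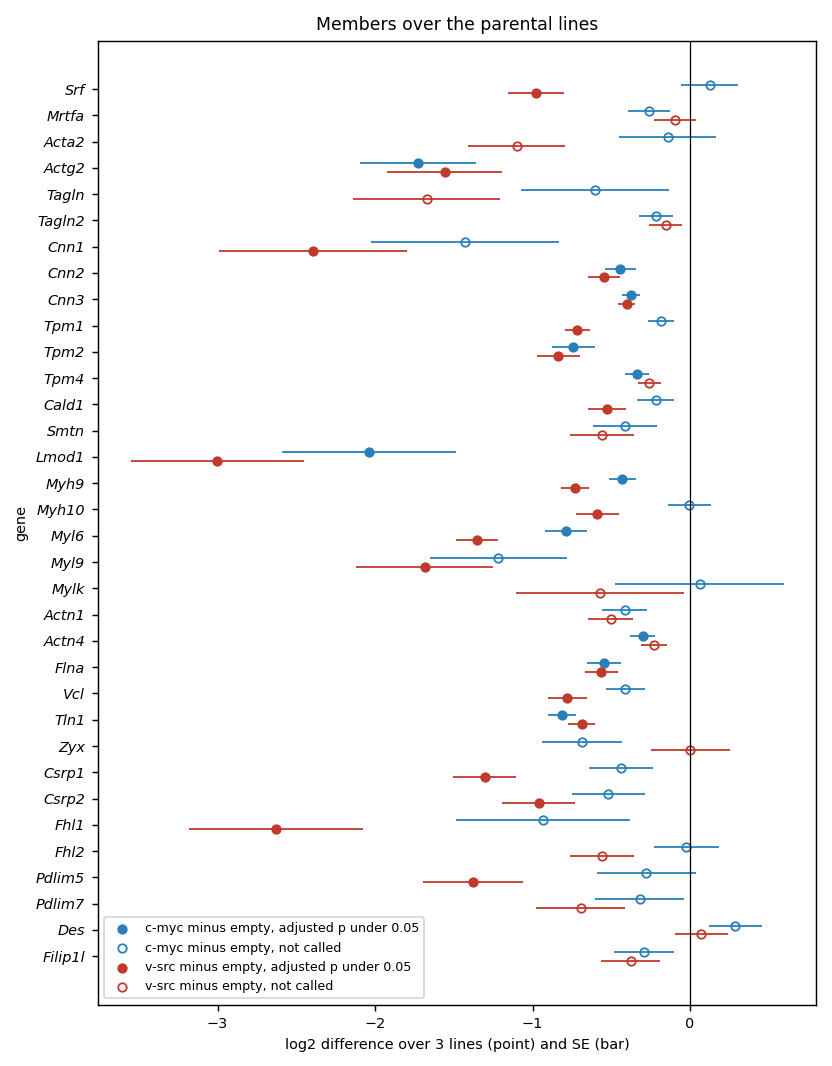
Difference from the empty vector over the 3 lines for each tested gene (y axis), as log2 of intensity plus 23 (x axis), with v-src and c-myc in different colours, points for the estimate and bars for its SE. Filled points have an adjusted p under 0.05, and all filled points lie left of 0, down to -3.001 for Lmod1 with v-src.

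Srf itself encodes the factor that binds the boxes shown above, and its own promoter holds 2 of them. In WA, Srf read 2173, 2104 and 2269.9 with c-myc and 1469, 1558 and 1522 with v-src, against 2324, 2373 and 2451 with the empty vector. Srf in WB read 3559, 3432 and 3218 with c-myc and 1262 and 1178 with v-src, against 2303, 2598 and 2490.2 with the empty vector. In WC, Srf stood at 1628, 2203 and 1794 with c-myc and 693, 777 and 714 with v-src, against 1779.5, 1692 and 1978 with the empty vector. All v-src arrays lay below all empty vector and all c-myc arrays in each line, while c-myc arrays were below empty vector arrays in WA, above them in WB and overlapped them in WC. Srf fell with v-src, to 1155 ± 398 (SD, n = 3 lines) against 2221 ± 353 with the empty vector (log2 -0.98, SE 0.18, limma adjusted p = 0.0128), a 1.97-fold difference. With c-myc the difference was 0.12 (adjusted p = 0.670). A dimmer probe set of Srf gave -0.43 with v-src and 0.50 with c-myc, and with probe sets averaged the v-src call was lost (-0.70, adjusted p = 0.0507).

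Mrtfa encodes MRTF-A, the actin-regulated coactivator of SRF. In WA, Mrtfa read 1728, 1674 and 1882 with c-myc and 2576, 2791 and 2504 with v-src, against 2319, 2237 and 2184 with the empty vector. Mrtfa in WB read 2477, 2397 and 2481 with c-myc and 2329.6 and 2325 with v-src, against 2588, 2945 and 2867 with the empty vector. In WC, Mrtfa stood at 2314, 1942 and 1902 with c-myc and 2077, 2076 and 1986 with v-src, against 2656, 2480.4 and 2187 with the empty vector. The v-src arrays lay above the empty vector arrays in WA and below them in WB and WC. Mrtfa averaged 2088 ± 347 with c-myc, 2332 ± 289 with v-src and 2496 ± 281 with the empty vector (SD, n = 3 lines), and neither difference, -0.26 with c-myc and -0.10 with v-src, was called (limma adjusted p = 0.205 and 0.669). Within WA the v-src difference of 0.22 was called higher (adjusted p = 0.0446).

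The thin filament and its smooth muscle partners made up 13 of the genes, of which 8 fell with v-src (median log2 -0.71) and 6 with c-myc (median -0.41). Beside this and the following groups by role, 6.79% of all genes were called lower with v-src and 9.76% with c-myc. Acta2 encodes the actin most used as a mark of smooth muscle and myofibroblasts. In WA, Acta2 read 16477, 20174 and 19981 with c-myc and 15620.5, 15765 and 16573 with v-src, against 19399, 18694 and 28710.2 with the empty vector. Acta2 in WB read 19829, 18951 and 18033 with c-myc and 11864 and 11976 with v-src, against 18974, 19956 and 19875 with the empty vector. In WC, Acta2 stood at 19257, 17927 and 15971 with c-myc and 4201, 4736 and 4471 with v-src, against 24291, 19712 and 16012 with the empty vector. All v-src arrays lay below the empty vector arrays in each line, and c-myc arrays overlapped them in each line. Over the lines the v-src difference of -1.10 (SE 0.31) just missed the threshold (limma adjusted p = 0.0536), and line WA gave -0.45, WB -0.72 and WC -2.14, each called within its line. Leaving out 1 array brought it under the threshold for WA empty vector replicate 1 (adjusted p = 0.0470), replicate 2 (0.0453) and WA c-myc replicate 1 (0.04995). The c-myc difference was -0.14 (adjusted p = 0.787). The maxima of the arrays were 19372 to 32647, near the levels of Acta2, and whether the probe set was saturated was not tested. The dimmer probe sets of Acta2, with means of 204 and 91.4, differed by -3.61 and -1.81 with v-src and by -2.51 and -0.29 with c-myc. Averaged over probe sets, Acta2 was called with both vectors, at -2.17 with v-src (adjusted p = 0.00124) and -0.98 with c-myc (adjusted p = 0.00846).

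Actg2 encodes the other smooth muscle actin. In WA, Actg2 read 2098, 2852 and 2798 with c-myc and 6644, 7083 and 7673 with v-src, against 12602, 11481 and 14417 with the empty vector. Actg2 in WB read 2474, 2034 and 2043 with c-myc and 2031 and 2141 with v-src, against 5808, 5707 and 6309 with the empty vector. In WC, Actg2 stood at 489, 256 and 209.5 with c-myc and 167, 139 and 143 with v-src, against 955, 742 and 850.2 with the empty vector. All c-myc and all v-src arrays lay below the empty vector arrays of their line, although the empty vector level itself averaged 849 in WC and 12833 in WA. In WA the v-src arrays lay above the c-myc arrays, in WC below them. Actg2 fell with both vectors, by 3.31-fold with c-myc (log2 -1.73, SE 0.37, limma adjusted p = 0.0169) and 2.95-fold with v-src (-1.56, adjusted p = 0.0305). A fit with no intensity trend ended the v-src call (adjusted p = 0.0505).

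Tagln encodes transgelin (SM22), an actin-binding protein of smooth muscle and fibroblasts. In WA, Tagln read 8907, 11503 and 11053 with c-myc and 11681, 12099.8 and 12981 with v-src, against 17132, 16134 and 23206 with the empty vector. Tagln in WB read 13667, 12517 and 11708 with c-myc and 6663 and 7035 with v-src, against 15125, 16893 and 16898 with the empty vector. In WC, Tagln stood at 12163, 9386 and 8838 with c-myc and 1517, 1886 and 1644 with v-src, against 17684, 15616 and 12936 with the empty vector. Arrays of both vectors lay below the empty vector arrays in each line. The spread between lines was wide, with v-src differences of -0.60 for WA, -1.25 for WB and -3.17 for WC, and the difference over lines of -1.67 was not called (SE 0.47, limma adjusted p = 0.0530). It came under the threshold without WA empty vector replicate 1 or 2, WA c-myc replicate 1, WA v-src replicate 3 or WB v-src replicate 3, at adjusted p between 0.0473 and 0.0498. The c-myc difference was -0.60 (adjusted p = 0.404).

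Cnn1, calponin of smooth muscle, binds actin and tropomyosin. In WA, Cnn1 read 1536, 2181 and 2235 with c-myc and 2125, 2444 and 2742 with v-src, against 5411, 4767 and 6505 with the empty vector. Cnn1 in WB read 3488, 3419 and 3645 with c-myc and 2256 and 2416 with v-src, against 5706, 6327 and 6897 with the empty vector. In WC, Cnn1 stood at 2323, 712 and 546 with c-myc and 107, 210.1 and 117 with v-src, against 4583, 4435 and 2825 with the empty vector. Arrays of both vectors lay below the empty vector arrays in each line. Among the c-myc arrays of WC, replicate 1 lay above the other 2. Cnn1 fell with v-src, to 1639 ± 1295 against 5273 ± 1207 with the empty vector (SD, n = 3 lines; log2 -2.40, SE 0.60, limma adjusted p = 0.0368), with -4.59 in WC as its largest difference. With c-myc it was -1.43 (adjusted p = 0.134). A fit with no intensity trend ended the v-src call (adjusted p = 0.0585).

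Lmod1, leiomodin, nucleates actin filaments in smooth muscle. In WA, Lmod1 read 27.3, 108 and 54.3 with c-myc and 80.1, 166 and 189 with v-src, against 526, 468 and 559 with the empty vector. Lmod1 in WB read 175, 276 and 222 with c-myc and 36.2 and 86.7 with v-src, against 678, 572 and 594 with the empty vector. In WC, Lmod1 stood at 379.7, 131 and 46.0 with c-myc and 6.80, 18.2 and 6.10 with v-src, against 642, 616 and 589 with the empty vector. Every array with c-myc or v-src lay below every empty vector array of its line. Lmod1 fell 8.01-fold with v-src (log2 -3.001, SE 0.55, limma adjusted p = 0.0128) and 4.11-fold with c-myc (-2.04, adjusted p = 0.0378). Leaving out WC c-myc replicate 3 or WA v-src replicate 1 ended the c-myc call (adjusted p = 0.0730 and 0.0507), and so did a fit with no filter (0.0528) or no intensity trend (0.0582). With v-src in WC the probe set read 10.4 on average, below the added 23 units, so the size of the change there is uncertain.

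Tpm2 encodes beta-tropomyosin, which lies along the actin filament. In WA, Tpm2 read 6166, 6989 and 7228 with c-myc and 8435, 8122 and 10406 with v-src, against 12836, 12155 and 14376 with the empty vector. Tpm2 in WB read 6997, 8126 and 7917 with c-myc and 5809 and 6058 with v-src, against 11049, 12456 and 11838 with the empty vector. In WC, Tpm2 stood at 11329, 8577 and 8812 with c-myc and 6647, 8290.5 and 7962 with v-src, against 15943, 15309.5 and 13788 with the empty vector. All arrays of both vectors lay below those of the empty vector in each line. Tpm2 fell 1.79-fold with v-src (log2 -0.84, SE 0.14, limma adjusted p = 0.00813) and 1.67-fold with c-myc (-0.74, adjusted p = 0.0107). Of its 3 other probe sets, 2 gave -1.03 and -1.05 with v-src and -1.08 and -0.93 with c-myc, and the dimmest gave -0.74 with v-src and 0.19 with c-myc.

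Of the other thin filament genes, Tpm1 (alpha-tropomyosin) fell with v-src, to 8385 ± 555 against 13914 ± 1784 with the empty vector (SD, n = 3 lines, log2 -0.71), and stood at 12141 ± 32.8 with c-myc (-0.18, limma adjusted p = 0.147). The calponins of wider expression both fell with both vectors, Cnn2 by 0.54 with v-src and 0.44 with c-myc on the log2 scale, and Cnn3 by 0.40 with v-src and 0.38 with c-myc. Cnn2's c-myc call was lost without the intensity trend (adjusted p = 0.0623). Cald1 (caldesmon, which blocks myosin on actin) fell by 0.53 with v-src, lost without the trend (adjusted p = 0.0642) and with quantile normalization (0.0675). Tpm4, a tropomyosin of non-muscle cells, fell by 0.34 with c-myc, lost without the trend (0.0776), and its v-src difference was -0.26 (adjusted p = 0.0573). Smtn (smoothelin) averaged 1171 ± 337 with c-myc, 1035 ± 150.1 with v-src and 1528 ± 69.9 with the empty vector, with no call over the lines. Tagln2, a relative of transgelin, averaged 5792 ± 371 with c-myc, 6054 ± 778 with v-src and 6740.2 ± 809 with the empty vector, also with no call.

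**Figure D3:**
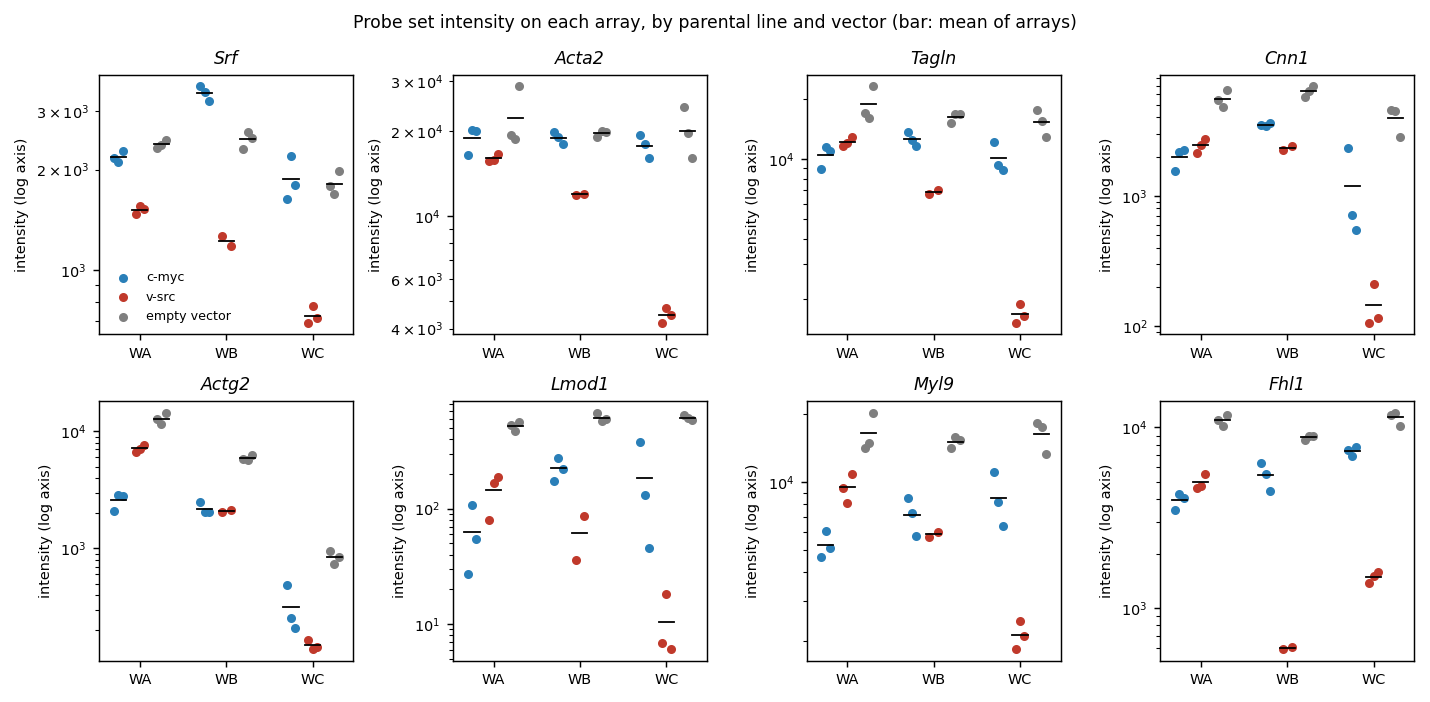
Probe set intensity (y axis, log scale) on each array for selected genes, by parental line (x axis) and vector (colour), with a bar at the mean of the arrays. With v-src, Srf, Acta2 and Tagln lie below the empty vector in all 3 lines, and in WC Cnn1 and Tagln with v-src reach their lowest values.

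Myosin II, the motor that pulls on actin filaments, was represented by 5 genes, of which 4 fell with v-src (median log2 -0.73) and 2 with c-myc (median -0.43). Myl9 encodes the regulatory light chain of smooth muscle and non-muscle myosin. In WA, Myl9 read 4699, 6099 and 5139 with c-myc and 9449.6, 8130.5 and 10834 with v-src, against 14112, 14819.7 and 20227 with the empty vector. Myl9 in WB read 8483, 7276 and 5791 with c-myc and 5709 and 6054 with v-src, against 14128, 15795 and 15306 with the empty vector. In WC, Myl9 stood at 11029, 8164 and 6396 with c-myc and 1842, 2456 and 2097 with v-src, against 18184, 17544 and 13309.9 with the empty vector. Arrays of both vectors lay below the empty vector arrays in each line, with v-src above c-myc in WA and below it in WC. Myl9 fell 3.22-fold with v-src (log2 -1.69, SE 0.44, limma adjusted p = 0.0419) and differed by -1.22 with c-myc (adjusted p = 0.0890). Leaving out WA empty vector replicate 3 ended the v-src call (adjusted p = 0.0514), and so did a fit with no trend, no filter or quantile normalization (0.0553 to 0.0667).

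Myl6 encodes the essential light chain of the same motor. In WA, Myl6 read 440.5, 357 and 428 with c-myc and 256, 268 and 259 with v-src, against 914, 807 and 657 with the empty vector. Myl6 in WB read 261, 286 and 453 with c-myc and 201 and 179.9 with v-src, against 473, 470.2 and 461 with the empty vector. In WC, Myl6 stood at 484, 414 and 349 with c-myc and 332, 324 and 279.8 with v-src, against 804, 784 and 877 with the empty vector. The groups did not overlap with the empty vector in any line. Myl6 fell with v-src to 254 ± 61.1 and with c-myc to 386 ± 45.4, against 694 ± 196 with the empty vector (SD, n = 3 lines), which is log2 -1.35 (limma adjusted p = 0.00195) and -0.79 (adjusted p = 0.00822), both with SE 0.13. The v-src call held in every setting.

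The heavy chains of non-muscle myosin II differed in their c-myc values. Myh9 fell by 0.73 with v-src and 0.43 with c-myc on the log2 scale (SE 0.09, limma adjusted p = 0.00289 and 0.0141). Myh10 fell by 0.59 with v-src (SE 0.14, adjusted p = 0.0304), lost without the trend (0.0616), and averaged 6498 ± 1643 with c-myc and 6551 ± 1532 with the empty vector. Mylk, the kinase that switches the light chain on, went different ways in the lines. With c-myc the difference was 1.09 for WA (called higher), -0.98 for WB and 0.07 for WC, and with v-src -1.43 for WA, -0.85 for WB and 0.57 for WC, with no call over the lines (adjusted p = 0.952 and 0.517).

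Among 6 genes for cross-linkers and the adhesion plaque, where filaments meet integrins, 3 fell with v-src (median log2 -0.53) and 3 with c-myc (median -0.48). Tln1 encodes talin, which links integrins to actin. In WA, Tln1 read 2685, 3088 and 3083 with c-myc and 3621, 3890.4 and 3262 with v-src, against 5086, 4776 and 6304 with the empty vector. Tln1 in WB read 2669, 2817 and 3028 with c-myc and 3064 and 3401 with v-src, against 5042, 4830.1 and 5583 with the empty vector. In WC, Tln1 stood at 5139, 4115 and 3452 with c-myc and 4296, 3635 and 3886 with v-src, against 7342, 8015 and 5719 with the empty vector. All arrays with c-myc or v-src lay below the empty vector arrays of their line. Tln1 fell 1.76-fold with c-myc (log2 -0.81, limma adjusted p = 0.00289) and 1.61-fold with v-src (-0.69, adjusted p = 0.00360), both with SE 0.09, and both calls held in every setting.

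Flna, filamin A, which cross-links filaments into a mesh, fell by 0.56 with v-src and 0.55 with c-myc on the log2 scale (SE 0.11). Vcl, vinculin, which strengthens the talin link, fell by 0.78 with v-src (SE 0.13, limma adjusted p = 0.00779), and its c-myc difference of -0.41 missed the threshold (adjusted p = 0.0551) but passed it without WA empty vector replicate 2 (0.0499). Actn4, an alpha-actinin, fell by 0.30 with c-myc, a call lost without WB empty vector replicate 2 (0.0504), without the filter (0.0632) and without the trend (0.112), and its v-src difference was -0.23. Actn1, the other alpha-actinin, differed by -0.50 with v-src and -0.41 with c-myc (adjusted p = 0.0561 and 0.0811). Its v-src difference passed without WA c-myc replicate 1 or WC c-myc replicate 2 (0.0461 and 0.0469). Zyx, zyxin, a LIM protein of the plaque, averaged 5958 ± 3164 with c-myc, 8807 ± 685 with v-src and 8890.1 ± 1346 with the empty vector (SD, n = 3 lines). Its differences were -0.69 and 0.00, neither called, and in WA with c-myc it stood at -1.15.

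The LIM domain and other filament proteins numbered 9, of which 8 were tested, 4 fell with v-src (median log2 -0.83) and none with c-myc (median -0.31). Csrp1 encodes a LIM protein that binds alpha-actinin and zyxin. In WA, Csrp1 read 5801, 7084 and 6917 with c-myc and 4852, 5028 and 5332 with v-src, against 8667, 8419 and 12528 with the empty vector. Csrp1 in WB read 8118, 7614 and 7116 with c-myc and 4223 and 4325 with v-src, against 8287, 8684 and 8838 with the empty vector. In WC, Csrp1 stood at 7973, 6208 and 4535 with c-myc and 2372, 2329 and 2197 with v-src, against 10107, 9214 and 8092 with the empty vector. Arrays of both vectors lay below those of the empty vector in each line, and those of v-src below those of c-myc. Csrp1 fell 2.47-fold with v-src (log2 -1.30, SE 0.20, limma adjusted p = 0.00684), a call that held in every setting, and differed by -0.44 with c-myc (adjusted p = 0.166).

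Fhl1 encodes a LIM protein of muscle and fibroblasts, and a promoter window of this gene is among those shown. In WA, Fhl1 read 3502, 4257 and 4066 with c-myc and 4609.7, 4759 and 5525 with v-src, against 11020.5, 10238 and 11759 with the empty vector. Fhl1 in WB read 6332, 5491 and 4450.2 with c-myc and 592 and 608 with v-src, against 8496, 8946 and 8962 with the empty vector. In WC, Fhl1 stood at 7546, 6947 and 7766 with c-myc and 1374, 1495 and 1575 with v-src, against 11792, 12081 and 10207 with the empty vector. All arrays of both vectors lay below the empty vector arrays, and the lowest values were those of v-src in WB, not in WC. Fhl1 fell 6.19-fold with v-src (log2 -2.63, SE 0.55, limma adjusted p = 0.0212), with -1.15 for WA, -3.82 for WB and -2.92 for WC, and differed by -0.93 with c-myc (adjusted p = 0.273). A dimmer probe set of Fhl1, with a mean of 170, gave -0.53 with v-src and 0.12 with c-myc.

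Pdlim5 encodes a PDZ and LIM protein of the alpha-actinin bundle. In WA, Pdlim5 read 1817, 2286 and 2098 with c-myc and 2221, 2259 and 2068 with v-src, against 3749, 3278 and 4313 with the empty vector. Pdlim5 in WB read 3629, 3593 and 4390.3 with c-myc and 1113 and 1336 with v-src, against 3264, 3361 and 3498 with the empty vector. In WC, Pdlim5 stood at 3589, 3747 and 2740.2 with c-myc and 879, 972 and 1091 with v-src, against 3931, 3874 and 3401 with the empty vector. The v-src arrays lay below the empty vector arrays in each line. The c-myc arrays lay below them in WA, above them in WB and overlapped them in WC. Pdlim5 fell 2.60-fold with v-src (log2 -1.38, SE 0.32, limma adjusted p = 0.0276), a call lost with its probe sets averaged (-0.86, adjusted p = 0.0768), and differed by -0.28 with c-myc (adjusted p = 0.581).

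Csrp2, a relative of Csrp1 in smooth muscle, fell by 0.96 with v-src on the log2 scale (SE 0.23, limma adjusted p = 0.0322), lost without the trend (0.0536). Fhl2, a LIM protein that shuttles to the nucleus, averaged 2183 ± 769 with c-myc, 1449.8 ± 303 with v-src and 2183 ± 656 with the empty vector (SD, n = 3 lines). Pdlim7, a PDZ and LIM protein of stress fibres, differed by -0.32 with c-myc and -0.70 with v-src, and Filip1l, named for its likeness to a filamin-interacting protein, by -0.29 with c-myc and -0.38 with v-src, with no call for either. Des, desmin, the intermediate filament of muscle, stood low at 222 ± 21.7 with c-myc, 184 ± 29.8 with v-src and 177 ± 17.4 with the empty vector, with no call.

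Among the genes with an exact CArG box, 6 of 8 fell with v-src and 2 with c-myc, with medians of -0.88 and -0.43 on the log2 scale. Among the tested genes whose windows held none, 12 of 23 fell with v-src and 8 with c-myc, with medians of -0.57 and -0.34. Of all genes tested, 6.79% were called lower with v-src and 9.76% with c-myc. The boxes were counted in windows of 300 bases, and the counts are no test of SRF binding.

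The extent of the fall differed between the lines. Within WA, WB and WC, limma on the arrays called 25, 28 and 31 of the 34 genes lower with v-src, where 14.1%, 13.5% and 15.1% of all genes were. With c-myc it called 26, 13 and 25 lower, where 18.5%, 14.5% and 18.6% of all genes were. With v-src 1 gene was higher in WA, Mrtfa, and none in WB and WC, where 13.2%, 12% and 13.8% of all genes were. With c-myc 1 was higher in WA, Mylk, and 2 in WB, Srf (0.46) and Fhl2 (0.48), and none in WC, where 19%, 12.5% and 18.6% of all genes were. In either direction, 27.3%, 25.5% and 28.9% of all genes were called with v-src and 37.6%, 27% and 37.2% with c-myc. The 15 calls for c-myc in WB became 9 without either WB empty vector replicate 3 or WB c-myc replicate 2. With v-src, WC gave the lowest difference for 21 genes, WB for 9 and WA for 4. With c-myc, WA gave the lowest for 23, WC for 8 and WB for 3. In all 3 lines every v-src array lay below every empty vector array for 27 genes, where this held for 9.07% of all genes, and every c-myc array for 17, against 9.33% of all genes. Called lower within each of the 3 lines were 22 genes with v-src and 12 with c-myc, where 5.63% and 7.56% of all genes were.

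**Figure D4:**
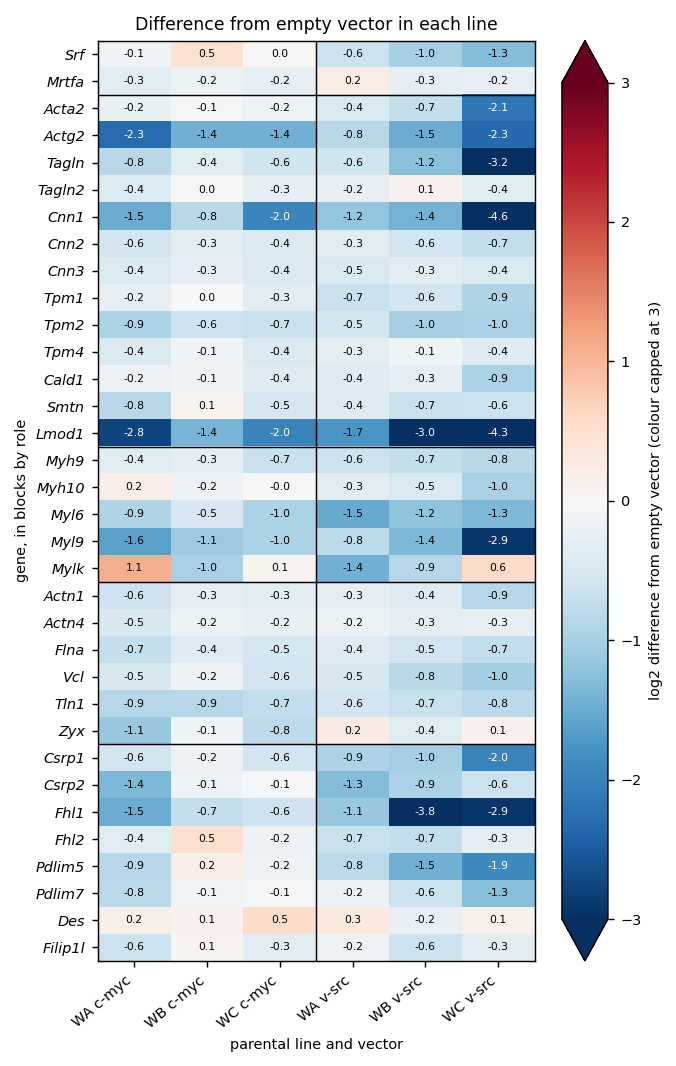
Difference from the empty vector in each line, as log2 of intensity plus 23 (colour, capped at 3), for each gene (rows), with v-src lines and c-myc lines as columns. Among the falls past the colour cap are those in WC with v-src of Cnn1 (-4.59), Lmod1 (-4.27) and Tagln (-3.17), and that in WB with v-src of Fhl1 (-3.82).

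An F test in limma asked whether the effect of a vector differed between the lines. It passed for 19 of the 34 genes with v-src, where 13.5% of all genes passed, led by Fhl1 (adjusted p = 4.11e-10), Tagln (6.40e-09) and Acta2 (1.91e-06). With c-myc it passed for 13 genes, where 16.2% of all genes passed, led by Zyx (5.60e-05), Filip1l (0.000110) and Csrp2 (0.000119). Among the 3 empty vector groups the level itself differed for 18 genes, where 44.9% of all genes differed, and for Actg2 (adjusted p = 1.27e-13) and Csrp2 (1.87e-11) the most. Those 18 became 13 without WB empty vector replicate 1. These tests compare arrays, and each line is 1 line.

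The v-src cells were also set against the c-myc cells, which share the vector backbone and differ in the oncogene. Over the lines 7 of the 34 genes were lower with v-src and none higher, where 13.7% of all genes were called lower, 11.9% higher and 25.5% in either direction. The genes were Srf (log2 -1.10, SE 0.18, limma adjusted p = 0.00504), Pdlim5 (-1.10), Csrp1 (-0.87), Myh10 (-0.58), Myl6 (-0.56), Tpm1 (-0.53) and Myh9 (-0.30). Srf and Tpm1 held in every setting. Myh9 was lost in several, among them without WC c-myc replicate 1 (adjusted p = 0.140), without WC empty vector replicate 3 (0.0827), without WA v-src replicate 3 (0.0593) or WB v-src replicate 2 (0.0603), and without WA c-myc replicate 2 or 3 (0.0551 and 0.0508). Acta2, at -0.96 (0.0560), passed without WA c-myc replicate 1 (0.0461) or WC empty vector replicate 1 (0.0482). Pdlim5 was lost with probe sets averaged (0.0535) and without the trend (0.0604). Within WA the members split, with 12 higher and 7 lower, where 18.2% and 20.9% of all genes were. In WB none was higher and 17 were lower, where 15.4% and 15.6% were, and in WC 1 was higher and 19 were lower, where 17.8% and 22.3% were. In either direction, 39.1%, 31% and 40.1% of all genes were called in WA, WB and WC. In WA, Actg2 was 1.47 higher with v-src than with c-myc, Zyx 1.40 and Myl9 0.83, and Mylk stood at -2.52. Whether this contrast differed between the lines was not tested.

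The other genes of the pathway were taken by list. Of 5 partners of SRF 4 were tested, and Myocd was too low. With c-myc Elk3, a ternary complex factor, fell by 0.42 on the log2 scale. With v-src Elk1 rose by 0.48 and Elk3 by 0.36 and Elk4 fell by 0.50, all of them ternary complex factors, which bind SRF in competition with MRTFs. Elk3's v-src call (limma adjusted p = 0.0497) was lost without many of the single arrays, at adjusted p up to 0.0681. Elk1's was lost without the filter (0.0534) and Elk4's with probe sets averaged (0.710). Against c-myc, v-src cells had Elk3 higher by 0.77, Mrtfb, for MRTF-B, by 0.63 and Elk1 by 0.41. Of these calls, that of Mrtfb was lost with probe sets averaged (0.24, adjusted p = 0.119) and that of Elk1 without the filter (0.0581) or without WA v-src replicate 2 (0.0537). The median of the 4 was 0.34 with v-src and -0.25 with c-myc, where all genes had 0.02 and 0.04.

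Of 4 other actins, Actb and Actg1, the cytoplasmic actins, fell by 0.24 and 0.25 with v-src, calls lost with quantile normalization (-0.07 and -0.08), and Actb's also without WA empty vector replicate 3 (limma adjusted p = 0.0567), WC empty vector replicate 1 (0.0916) or WC v-src replicate 1 (0.0598). None was called with c-myc. Both were also lower with v-src than with c-myc (-0.24 and -0.29), calls again lost with quantile normalization (-0.01 and -0.05). The differences of Actb and Actg1 with c-myc were 0.00 and 0.04.

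Of 32 further genes of the actin bundle and the adhesions 25 were tested. With v-src 2 rose and 11 fell (median -0.42), where 6.64% of all genes were called higher and 6.79% lower (median 0.02). With c-myc none rose and 8 fell (median -0.37), where 10% of all genes were called higher and 9.76% lower (median 0.04). The largest falls with v-src were Tln2 (talin 2, -1.39), Pdlim1 (-1.26) and Nexn (nexilin, -1.13), and the rises were Myl12b, a myosin regulatory light chain, by 0.95 and Pxn (paxillin) by 0.94. Leaving out WC c-myc replicate 1 ended the call of Myl12b (limma adjusted p = 0.0665). With c-myc the largest were Parva (parvin, a partner of integrin-linked kinase) by 1.30, Lpp by 0.90 and Sorbs3 (vinexin) by 0.89. Against c-myc, v-src cells had 6 of these genes higher, led by Fblim1 (1.03), Myl12b (0.83, lost without the trend at adjusted p = 0.0573) and Pxn (0.80), and 4 lower, led by Pdlim1 (-1.20), Nexn (-0.82) and Flnc (-0.81). Of all genes, 11.9% were called higher and 13.7% lower in that comparison.

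Across the 9 averages of line and vector the members were also compared by the likeness of their patterns, as Pearson's r of log2 values, a description in which the averages share lines and vectors. The patterns most like that of Acta2 were those of Tagln (r = 0.98), Csrp1 (0.94), Cald1 (0.93), Pdlim7 (0.90) and Cnn1 (0.89). Most like Srf were Csrp1 and Acta2 (0.88 each), Pdlim5 (0.87) and Tagln (0.84). Zyx and Mylk were the least like Acta2 (-0.18 each) and were also negative with Srf (-0.08 and -0.02), as was Actn4 (-0.02).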

How the data were processed

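The authors deposited an intensity per probe set and array, made with MAS5 per the submitters' processing notes (version not given in the sources used here), on a linear scale. Values were not renormalized. Control probe sets and those paired with several genes or none were left out, and the brightest probe set stood for each gene. Genes whose mean log2(intensity + 23) over arrays lay under the 40th percentile were not tested. Here 23 is the 20th percentile of all values. Under R 4.3.3, limma 3.58.1, its eBayes step taking an intensity trend, was fitted to the 9 averages per line and vector, with line as a term, and to the 26 arrays for effects within a line. P-values were Benjamini-Hochberg adjusted over all 13018 genes tested. Contrasts with the empty vector were run on simulated data, with changes added for v-src over the lines and within WA and WB. For c-myc, run over the lines only, no change was added, so recovery of a c-myc change was not tested. The simulated data for the fits within a line left out added variation between groups. The outcomes are not given here, and no call rests on them. The other contrasts and the F tests between lines were not run on simulated data. The number of arrays limits the precision.

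Values on every array were given for Srf, Mrtfa, Acta2, Actg2, Tagln and Cnn1, the 8 genes with the largest called v-src difference, the 5 with the largest called c-myc difference and the 5 with the smallest p for a v-src effect that differed between lines. From each further list at most 3 called genes per direction and comparison were named, the largest first. A further list of genes is not reported here. Members and lists were chosen with earlier results of these data known. Groups came from the titles and characteristics. The samples' free-text description is of embryos, another material, and was not used. WB v-src replicate 1 was not analysed here. Alternatives were quantile normalization, another pseudocount, no filter, averaged probe sets, no trend, arrays as separate values, the replicate block, and leaving out each array and line.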

Additional observations from a re-analysis of the deposited data

Results flagged for a closer look

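For 32 combinations of gene and vector the limma F test found that the effect of a vector, relative to the empty vector, differed between the 3 lines (adjusted p under 0.05, over all genes tested). With v-src these were Fhl1 (4.11e-10), Tagln (6.40e-09), Acta2 (1.91e-06), Myl9 (5.72e-06), Cnn1 (1.46e-05), Pdlim7 (0.000179), Pdlim5 (0.000214), Actg2 (0.000950), Csrp1 (0.00155) and Cald1 (0.00159). Of these 10 genes, Fhl1 had its lowest v-src value in WB, at -3.82 on the log2 scale, and the other 9 had theirs in WC. The v-src effect also differed for Srf (0.00290), Vcl (0.00302), Mylk (0.00352), Actn1 (0.00671), Mrtfa (0.00671), Filip1l (0.0104), Zyx (0.0130), Lmod1 (0.0159) and Tagln2 (0.0459).

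With c-myc the effect differed for Zyx (5.60e-05), Filip1l (0.000110), Csrp2 (0.000119), Fhl1 (0.000310), Fhl2 (0.000356), Pdlim5 (0.000398) and Smtn (0.000626). It also differed for Pdlim7 (0.00280), Mylk (0.00293), Srf (0.00451), Vcl (0.0182), Actg2 (0.0238) and Tagln2 (0.0465). The values of Zyx were -1.15 for WA, -0.13 for WB and -0.78 for WC, and those of Csrp2 were -1.35 for WA, -0.15 for WB and -0.06 for WC. Both sets of tests compare the same empty vector arrays.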

How the results depend on the processing

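The counts of called genes over the lines depended on how the lines entered. With c-myc against the empty vector, 11 genes became 7 without the intensity trend and 25 with all arrays as separate values, and 3 to 12 when an array or a line was left out (3 without WA, 4 without WC). With v-src against the empty vector, 20 became 14 without the intensity trend, 29 with all arrays as separate values, and 7 to 23 when an array or a line was left out (7 without WB, 7 without WC). With v-src against c-myc, 7 became 18 with all arrays as separate values, and 3 to 10 when an array or a line was left out (4 without WB, 3 without WC). With a line left out, 6 averages remain. With all arrays as separate values, arrays that may be technical count as replicates. For c-myc in WB, 15 calls became 9 to 16, with 9 without WB empty vector replicate 3 or WB c-myc replicate 2. No difference of a tested gene over the lines that was called changed its sign in any setting, and no other count moved by over 1.5 times. The alternatives without WC c-myc replicate 1 and WA empty vector replicate 3 and with a box 1 letter off were chosen after seeing the data.

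Of 25 pairs of same-numbered arrays within a line, 5 correlated over 0.1 in their deviations from the group means (r = -0.14 to 0.21). In WC, the empty vector and c-myc arrays correlated at 0.17 for number 1, -0.01 for number 2 and 0.21 for number 3. The c-myc and v-src arrays of WC correlated at 0.11, -0.01 and 0.10. Whether replicate numbers pair the samples of WC was not tested. With the replicate number as a block, the counts over the lines were 11 with c-myc, 20 with v-src and 7 for v-src against c-myc. Within WA, WB and WC they were 28, 16 and 25 with c-myc and 27, 29 and 30 with v-src. The tests between lines gave 12 for c-myc, 18 for v-src and 12 for the empty vector level.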

Other observations

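Probe sets of the same gene differed in direction or size in several cases. With c-myc, dimmer probe sets stood at 0.12 for Fhl1, 0.15 for Cald1 and 0.06 for Pdlim7. The brightest of these genes stood at -0.93, -0.22 and -0.32. With c-myc, Mylk's dimmest probe set stood at 0.80 and its brighter pair at 0.06 and -0.13 on the log2 scale. With v-src, Zyx's dimmer probe set stood at -0.47 and its brighter one at 0.00, while with c-myc they stood at -0.77 and -0.69. A dim probe set of Pdlim5 stood at 0.67 with c-myc and 0.00 with v-src, where its brightest stood at -0.28 with c-myc and -1.38 with v-src. Tagln2's dimmer probe sets stood at 0.11 and 0.49 with v-src, and its brightest at -0.16. The probe set at 0.49 had a mean intensity of 42.1, a level under the filter on low values.

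Acta1, the skeletal actin, differed by -2.80 in WA, -1.63 in WB and -0.35 in WC with c-myc, and by 0.02, -2.08 and -1.34 with v-src, without a call over the lines (limma adjusted p = 0.119 with c-myc and 0.270 with v-src).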
